A study of Mus musculus with 32 samples.

Results

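The CXCR3 ligand chemokines are the 3 genes Cxcl9 (ENSMUSG00000029417), Cxcl10 (ENSMUSG00000034855) and Cxcl11 (ENSMUSG00000060183). They were taken by gene symbol from the 54429 symbols of a table of bulk RNA-seq counts, and each symbol matched 1 gene identifier. The cells were Veravec, a single line of mouse lung endothelial cells (ECs), transfected with a control siRNA (si-control) or with siRNA against the DNA methyltransferase Dnmt1 (si-dnmt). Under each siRNA the cells then received no cytokine, TNFα at 10 ng/mL (TNF), IFNγ at 1000 U/mL (IFN) or both (TNF + IFN), for 16 h where a cytokine was given. Each of the 8 groups held 4 libraries, 32 in all, labelled as biological replicates 1 to 4. All 32 cultures had been through siRNA transfection, so no group shows untransfected cells.

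CXCL9, CXCL10 and CXCL11 are secreted chemokines that bind the receptor CXCR3, which is carried by activated T cells and NK cells. ECs that make them display a signal by which such cells are drawn to a vessel wall. Their genes are textbook targets of IFNγ, which acts through JAK kinases and the factor IRF1, and TNFα acts on the same genes through NF-kB. The study silenced Dnmt1 in these ECs to ask how the loss of the enzyme changes the response to the 2 cytokines, and the chemokines were measured here as RNA only.

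The 3 genes lie side by side on the minus strand of mouse chromosome 5 in the order Cxcl9, Cxcl10, Cxcl11, and they span 44139 bases in the GENCODE M21 annotation of GRCm38. Art3, an ADP-ribosyltransferase family gene on the plus strand, spans both Cxcl10 and Cxcl11. Cxcl10 shares 133 exonic bases with Art3 (5.91% of its exons), Cxcl9 shares 0, and Cxcl11 shares 1582 exonic bases (41.7%) with the processed pseudogene Gm2673 on the plus strand. GENCODE types Cxcl11 as a polymorphic pseudogene, since the annotated genome is that of a mouse strain with a disrupted copy. Its counts are reported here as RNA from that locus and say nothing of a protein. The strand setting of the counting is not given in the sources consulted, so reads in the shared bases could have been left out or given to either gene. Art3 had at most 19 counts in any library and Gm2673 at most 1.

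The promoters are shown because the 2 cytokines reach these genes through factors that bind such sequences. The 250 bases before the start of Cxcl9 (chr5:92328080-92328329) and of Cxcl10 (chr5:92348890-92349139), both on the minus strand of GRCm38.p6, are printed 5′ to 3′ from RefSeq with motif matches in capitals. Cxcl11 had no entry in that promoter table.
Cxcl9: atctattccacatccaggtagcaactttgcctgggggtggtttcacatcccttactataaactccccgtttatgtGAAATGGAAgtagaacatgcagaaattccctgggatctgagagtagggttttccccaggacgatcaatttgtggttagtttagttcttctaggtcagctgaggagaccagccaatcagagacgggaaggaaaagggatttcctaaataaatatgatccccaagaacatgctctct
Cxcl10: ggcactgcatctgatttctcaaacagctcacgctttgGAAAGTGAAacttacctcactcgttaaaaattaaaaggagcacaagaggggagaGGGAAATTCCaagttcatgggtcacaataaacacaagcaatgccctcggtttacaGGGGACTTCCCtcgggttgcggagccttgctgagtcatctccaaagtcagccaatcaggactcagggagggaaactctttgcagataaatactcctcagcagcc
The 3 motifs searched, on both strands and with overlapping matches kept, were the palindromic gamma-activated (GAS) motif TTCNNNGAA, the IRF repeat GAAANNGAA, and the NF-kB consensus. The IRF repeat was found once in Cxcl9, 175 to 167 bases before the start, and once in Cxcl10, 213 to 205 bases before the start. Of 32851 mouse promoter windows of the same length, 7.13% held it. The NF-kB consensus was found in Cxcl10 as GGGAAATTCC from 159 to 150 bases before the start, and as 2 overlapping matches from 104 to 94 bases before it. It had no exact match in the Cxcl9 window, and 7.25% of all windows held it. Matches had to be exact for all 3 motifs, so sites that depart from a motif would be missed. The GAS motif was in neither window and in 7.02% of all windows. CG pairs numbered 3 in the Cxcl9 window and 5 in the Cxcl10 window, against a median of 6 over all windows.

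Total counts ran from 17362546 to 33500030 per library, with a median of 20859668. Dnmt1 was at 86.5 to 211 CPM (counts scaled to library size, with TMM factors) in the 16 si-control libraries and at 5.11 to 17.3 CPM in the 16 si-dnmt libraries. The summed level of 8 EC markers (Cdh5, Pecam1 and others) was 3519 to 9303 CPM. Of 8 leukocyte markers, Cd3e was at 0 everywhere, and Ptprc, the pan-leukocyte gene, reached at most 3 counts in a library. The summed leukocyte level (67.6 to 232 CPM) came mostly from Cd68 and Lyz2. Summed over 7 genes, markers of fibroblasts and mural cells were mostly Acta2. Without cytokine they ran from 9.70 to 28.8 CPM in si-control and from 42.9 to 189 CPM in si-dnmt. The cytokine states are given further below, and with TNF + IFN the siRNAs overlapped. Within groups, replicates 1 and 2 often stood apart from replicates 3 and 4. The labels give no reason. The difference between the sets was tested for the 3 chemokines in 20 comparisons and called in 20 of those 60 cases, and the values of both sets are given there. Of all genes 0.0393% to 16.1% were called, depending on the comparison. This test was added after seeing the data, with 2 libraries per set and group. Its p-values therefore describe the split and are not independent evidence of it. Since these are bulk cultures, more RNA per cell and more cells making RNA cannot be told apart.

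Cxcl9 covered the widest range of the chemokines. In si-control its 4 libraries held 1, 3, 1 and 1 counts, in order of replicate number here and below. TNF brought 3.78, 4.22, 2.85 and 3.20 CPM. IFN brought 180, 167, 57.7 and 43.7 CPM, so replicates 1 and 2 were well above replicates 3 and 4. TNF + IFN brought 4546, 4359, 3150 and 3216 CPM. The 4 states of si-control did not overlap. At that last level Cxcl9 ranked between 14 and 21 among the 15254 genes tested, by CPM, and took 0.344% of all counts on average.

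In si-dnmt Cxcl9 stood higher from the start, at 1.34, 2.35, 0.683 and 0.487 CPM. It was at 32.2, 31.7, 7.43 and 8.02 CPM with TNF and at 687, 714, 212 and 190 CPM with IFN. It reached 8457, 8131, 4045 and 3888 CPM with TNF + IFN, where it ranked between 2 and 13 of all genes. Every si-dnmt library lay above every si-control library in the first 3 states, and with both cytokines the 2 groups overlapped.

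Cxcl10 was the only chemokine of the 3 with a clear level before stimulation, at 9.48, 6.57, 16.6 and 15.7 CPM in si-control and at 21.7, 33.3, 33.8 and 37.4 CPM in si-dnmt. With TNF it was at 283, 350, 222 and 241 CPM in si-control and at 363, 339, 241 and 252 CPM in si-dnmt. With IFN it was at 381, 437, 172 and 165 CPM in si-control and at 434, 430, 280 and 319 CPM in si-dnmt. These 4 single-cytokine groups overlapped one another. With TNF + IFN it rose to 1974, 2046, 1441 and 1532 CPM in si-control and to 1880, 2054, 1643 and 1840 CPM in si-dnmt, all above every single-cytokine library.

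Cxcl11 had 0, 0, 1 and 4 counts in si-control, where a count of 0 allows up to 3, and 8, 13, 11 and 9 counts in si-dnmt. With TNF it was at 9.71, 12.5, 6.01 and 7.29 CPM in si-control and at 20.5, 16.8, 11.6 and 10.8 CPM in si-dnmt. With IFN it was at 24.0, 22.6, 2.67 and 3.56 CPM in si-control and at 22.4, 26.7, 9.98 and 9.46 CPM in si-dnmt. The IFN libraries of si-control thus split by replicate set, and the mean of replicates 1 and 2 was 7.46 times that of 3 and 4. With TNF + IFN it was at 415, 397, 184 and 176 CPM in si-control and at 442, 386, 183 and 211 CPM in si-dnmt.

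**Figure D1:**
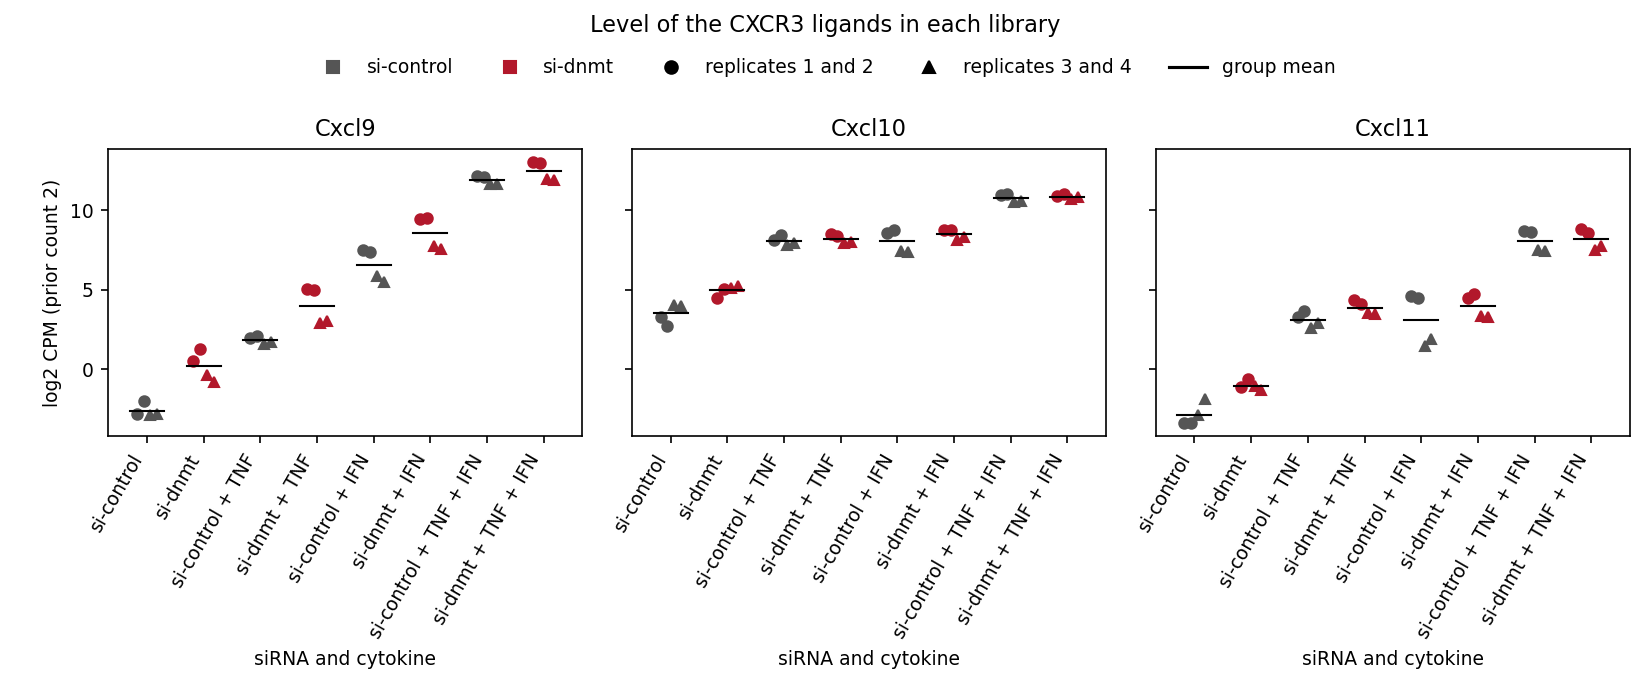
Level of each chemokine in the 32 libraries, as log2 CPM with a prior count of 2 on the vertical axis and the 8 groups on the horizontal axis (grey, si-control. Red, si-dnmt. Circles, replicates 1 and 2. Triangles, replicates 3 and 4. Bars, group means). Cxcl9 climbs across the 8 groups while Cxcl10 and Cxcl11 form a low pair, 4 middle groups whose libraries overlap and a high pair.

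The order of group means for Cxcl9 was si-control, si-dnmt, si-control + TNF, si-dnmt + TNF, si-control + IFN, si-dnmt + IFN, si-control + TNF + IFN and si-dnmt + TNF + IFN. Neighbours in that order differed at an adjusted p under 0.05 (edgeR's quasi-likelihood F test, adjusted over 15254 genes) in 6 of 7 steps, the exception being the last. The order was made from the same values, so these tests describe the spread and are not independent evidence of the order. Steps between the siRNAs within a state are the same comparisons as those given further below. The step from si-dnmt to si-control + TNF was the narrowest of these calls (log2 fold change 1.57 ± 0.62 SE, adjusted p = 0.0469), in a comparison that called 38.0% of all genes. The steps from si-dnmt + TNF to si-control + IFN and from si-dnmt + IFN to si-control + TNF + IFN were 2.49 ± 0.52 and 3.08 ± 0.52, in comparisons that called 37.1% and 36.6% of genes. For Cxcl10 and Cxcl11 the 4 single-cytokine groups took positions 3 to 6 in both genes, and none of their 3 neighbouring steps was called, with log2 differences of 0.05 to 0.29 for Cxcl10 and 0.18 to 0.57 for Cxcl11. Those comparisons called 28.4%, 37.1% and 17.0% of all genes. Between TNF and IFN in si-control the means average over sets that went opposite ways. TNF and IFN gave Cxcl10 means of 316 and 409 CPM in replicates 1 and 2 and of 232 and 169 CPM in replicates 3 and 4, and Cxcl11 means of 11.1 and 23.3 CPM and of 6.65 and 3.12 CPM.

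The responses to single cytokines were taken against unstimulated cells of the same siRNA, so the comparisons under 1 siRNA share their control libraries. With TNF in si-control all 3 chemokines were called higher, where 30.8% of all genes were called in either direction. Cxcl10 rose 22.6-fold (log2 4.50 ± 0.32, adjusted p = 1.75e-11). For the other members the unstimulated libraries held so few reads that summed counts are given. The intervals of these ratios, here and below, hold counting error only and leave out the spread between libraries. Cxcl9 went from 6 to 313 reads, a ratio of 49.8 (95% exact interval 22.6 to 137, counting error only), and Cxcl11 from 5 to 788 reads, a ratio of 150.5 (64.2 to 465). Without si-control replicate 4, which held 4 of those 5 reads, the fitted Cxcl11 fold moved from 138 to 407.

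With IFN in si-control all 3 were again called higher, against 14.5% of all genes. Cxcl10 rose 23.9-fold (log2 4.58 ± 0.32, adjusted p = 5.36e-12), close to its rise with TNF, and the libraries of the 2 treatments overlapped. Cxcl9 went from 6 to 8278 reads, a ratio of 1591 (730.5 to 4336), far above its ratio with TNF. Cxcl11 went from 5 to 977 reads, a ratio of 225 (96.2 to 695), and its fitted fold of 205 became 598 without si-control replicate 4. The rise of Cxcl10 differed between the replicate sets for both cytokines. With TNF it was 5.29 ± 0.16 in replicates 1 and 2 and 3.84 ± 0.15 in replicates 3 and 4 (log2, difference adjusted p = 1.38e-05), where 16.1% of genes differed between the sets. With IFN it was 5.66 ± 0.17 and 3.39 ± 0.15 (adjusted p = 1.54e-08), where 3.26% did. For Cxcl11 the fitted rise was 10.88 and 5.83 with TNF (adjusted p = 0.0472) and 11.95 and 4.74 with IFN (adjusted p = 0.0107). Its values for replicates 1 and 2 rest on unstimulated libraries with 0 reads, so their size depends on the fit.

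In si-dnmt the same directions held, from higher unstimulated levels. TNF raised Cxcl9 by 4.07 ± 0.61, Cxcl10 by 3.24 ± 0.30 and Cxcl11 by 5.22 ± 0.68 on the log2 scale, all called, against 21.0% of genes. IFN raised Cxcl9 by 8.57 ± 0.70, Cxcl10 by 3.53 ± 0.30 and Cxcl11 by 5.41 ± 0.68, all called, against 9.01% of genes. The difference between the sets was called for Cxcl10 and for neither other member, with 3.67 ± 0.14 in replicates 1 and 2 and 2.79 ± 0.14 in replicates 3 and 4 for TNF (adjusted p = 0.00647, where 3.13% of genes differed) and 3.97 ± 0.15 and 3.07 ± 0.14 for IFN (adjusted p = 0.0154, where 0.538% did). Whether the response to a cytokine differed between the siRNAs was tested as an interaction. None of the members was called for TNF (0.0328% of genes were) or for IFN (0.0459%). All 6 interaction values lay below 0, from -2.27 for Cxcl11 with IFN to -1.04 for Cxcl10 with IFN, and Cxcl10 with TNF was at -1.26 (95% interval -2.06 to -0.45, adjusted p = 0.370). For each gene both values subtract the same unstimulated difference, so the 6 signs are not independent. For Cxcl9 and Cxcl11 that difference rests on 6 and 5 reads in si-control. The IFN interaction of Cxcl10 was -1.69 ± 0.21 in replicates 1 and 2 and -0.32 ± 0.19 in replicates 3 and 4 (adjusted p of the difference = 0.0100, where 0.577% of genes differed).

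TNF + IFN gave the highest level of every member under both siRNAs. Against unstimulated cells all 3 were called higher in si-control (45.2% of genes called) and in si-dnmt (40.2%). Cxcl10 rose 144-fold in si-control (log2 7.17 ± 0.36) and 58.7-fold in si-dnmt (5.88 ± 0.34). In si-control its rise was 7.96 ± 0.18 in replicates 1 and 2 and 6.53 ± 0.16 in replicates 3 and 4 (adjusted p of the difference = 1.53e-05, where 11.3% of genes differed). Cxcl9 went from 6 to 290216 reads in si-control, a ratio of 54861 (25205 to 149494). Cxcl11 went from 5 to 22556 reads, a ratio of 5117 (2192 to 15760), and its fitted fold of 4544 became 13367 without si-control replicate 4. The Cxcl11 sets gave 16.08, again over 0 reads, and 10.59 (adjusted p = 0.0362).

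Against a single cytokine the second still added a large rise. In si-control, TNF + IFN over IFN was 34.1-fold for Cxcl9 (log2 5.09 ± 0.57), 6.06-fold for Cxcl10 (2.60 ± 0.29) and 22.2-fold for Cxcl11 (4.47 ± 0.54), all called against 29.1% of genes. The Cxcl9 step was 4.68 ± 0.12 in replicates 1 and 2 and 5.97 ± 0.13 in replicates 3 and 4 (adjusted p of the difference = 2.42e-06, where 3.67% of genes differed). The sets gave 2.30 ± 0.13 and 3.14 ± 0.14 for Cxcl10 (adjusted p = 0.00510) and 4.12 ± 0.12 and 5.84 ± 0.15 for Cxcl11 (adjusted p = 2.52e-06). TNF + IFN over TNF was 1085-fold for Cxcl9 (10.08 ± 0.72), 6.38-fold for Cxcl10 (2.67 ± 0.29) and 33.0-fold for Cxcl11 (5.04 ± 0.56), all called against 21.0% of genes. By this last change Cxcl9 ranked 3 of 15254 genes. In si-dnmt the rises over IFN were 13.6-fold, 5.07-fold and 17.9-fold for Cxcl9, Cxcl10 and Cxcl11, all called against 23.6% of genes. The rises over TNF were 309-fold, 6.21-fold and 20.5-fold, all called against 17.5% of genes, and Cxcl9 ranked 2. Here the sets differed for Cxcl9, with log2 values of 3.57 ± 0.12 and 4.30 ± 0.12 over IFN (adjusted p = 0.00892, where 0.852% of genes differed) and 8.02 ± 0.14 and 9.01 ± 0.15 over TNF (adjusted p = 0.00209, where 1.25% did).

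**Figure D2:**
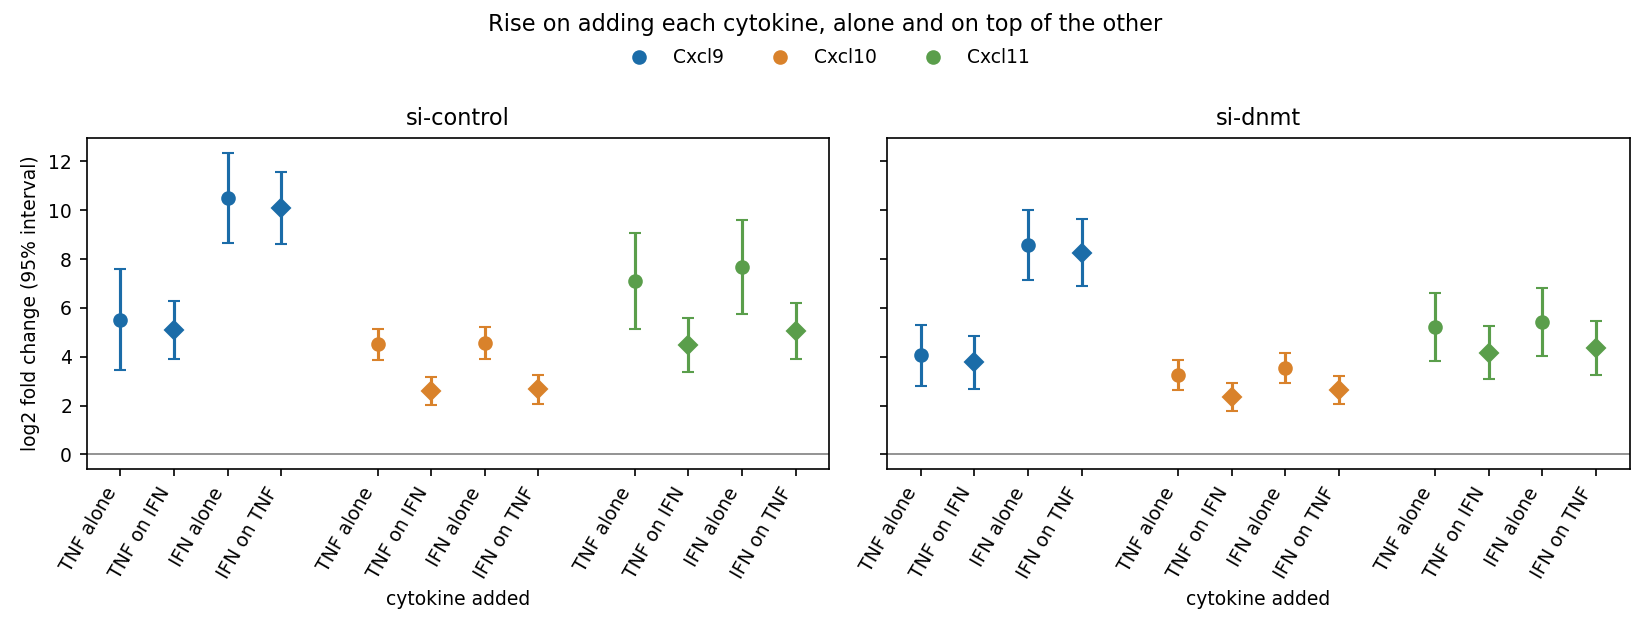
Log2 fold change of each chemokine (vertical axis, with 95% intervals) when TNF or IFN was added alone (circles) or on top of the other cytokine (diamonds), in si-control (left) and si-dnmt (right). For Cxcl10 in si-control the step for TNF drops from 4.50 alone to 2.60 on top of IFN, while for Cxcl9 the steps for TNF are 5.52 and 5.09.

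Whether the pair gave more than its parts depended on the scale. On the scale of CPM, the mean rise with both was compared with the sum of the 2 single rises, as a description. In si-control the pair reached 33.1 times that sum for Cxcl9, 3.22 times for Cxcl10 and 13.3 times for Cxcl11. In si-dnmt it reached 13.1, 3.03 and 9.78 times. The lowest TNF + IFN library was above the sum of the highest TNF and the highest IFN library in all 6 cases, by 1.83 times at the least (Cxcl10 in si-control) and 17.1 times at the most (Cxcl9 in si-control). In si-control the excess for Cxcl9 was 25.2 times in replicates 1 and 2 and 59.3 times in replicates 3 and 4. So every member rose by more than the sum.

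On the log scale the question is whether the pair matched the product of the single folds, and the TNF-by-IFN interaction tests it. In si-control 1.06% of genes were called, and Cxcl10 was among them, below the product (-1.90 ± 0.39, adjusted p = 0.00785). Its mean of 1748 CPM with both cytokines compares with 6555 CPM from the product of the single folds. The departure was -2.99 ± 0.20 in replicates 1 and 2 and -0.70 ± 0.19 in replicates 3 and 4, a difference between sets of 2.29 ± 0.28 (adjusted p = 1.05e-05, where 1.87% of genes differed). When the fit held only these 4 groups, the value of -1.92 had an adjusted p of 0.0814. Cxcl9 was at -0.43 (95% interval -3.04 to 2.18) and Cxcl11 at -2.63 (-5.50 to 0.23), neither called. For Cxcl11 the sets gave -6.75, over 0 unstimulated reads, and 0.015 (adjusted p of the difference = 0.0316). In si-dnmt none was called, against 0.354% of genes, with -0.30 ± 0.75 for Cxcl9, -0.90 ± 0.39 for Cxcl10 and -1.05 ± 0.86 for Cxcl11. The change of this interaction between the siRNAs was called for none of them, nor for any of the 15254 genes (0 by edgeR, or 0% of genes, with 285 at an unadjusted p under 0.05).

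Calls between si-dnmt and si-control were not the same for the 3 chemokines. Unlike calls do not by themselves show unlike effects, and tests of ratios to Cxcl10 are given further below. Without cytokine, Cxcl9 was 15.5-fold higher in si-dnmt (log2 3.96 ± 1.16, adjusted p = 0.0164) and Cxcl10 2.61-fold higher (1.38 ± 0.29, adjusted p = 0.000951), in a comparison that called 18.5% of genes. Both were higher in 4 of 4 same-numbered pairs of libraries. The Cxcl9 call was lost without si-dnmt replicate 2 (log2 3.42, adjusted p = 0.0601). Cxcl11 was not called (2.64 ± 1.48, adjusted p = 0.233), although its 4 si-dnmt libraries of 8 to 13 reads lay above the 4 si-control libraries of 0 to 4. In summed reads Cxcl11 went from 5 to 41, a ratio of 6.72 (2.66 to 21.8), but 4 of the 5 reads were in si-control replicate 4. The ratio was 3.10 in replicates 3 and 4, and replicates 1 and 2 had 0 reads in si-control.

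With TNF, Cxcl9 was 5.65-fold higher in si-dnmt (log2 2.50 ± 0.55, adjusted p = 0.00155), in a comparison that called 20.0% of genes. The rise was 3.00 ± 0.14 in replicates 1 and 2 and 1.35 ± 0.17 in replicates 3 and 4, a difference between the sets that was itself called (-1.65 ± 0.23, adjusted p = 2.59e-05, where 5.96% of genes differed). Cxcl10 differed by 0.12 ± 0.27 (95% interval -0.43 to 0.68), which was not called. Cxcl11 was at 0.75 ± 0.50 (adjusted p = 0.318). With the replicate number as a block in the model it was called (0.76, adjusted p = 0.0235), where 33.4% of genes were, and it was higher in 4 of 4 pairs by 1.34 to 2.11 times.

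With IFN, Cxcl9 was 4.03-fold higher in si-dnmt (log2 2.01 ± 0.50, adjusted p = 0.00488), in a comparison that called 20.3% of genes. The 4 same-numbered pairs gave 3.68 to 4.35 times, and the replicate sets gave 2.02 ± 0.11 and 1.99 ± 0.11. Cxcl10 (0.34 ± 0.27) and Cxcl11 (0.37 ± 0.49) were not called. In both of them the sets went apart. For Cxcl10 the difference was 0.08 ± 0.13 in replicates 1 and 2 and 0.83 ± 0.13 in replicates 3 and 4 (adjusted p of the difference = 0.00911). For Cxcl11 it was 0.08 ± 0.12 and 1.63 ± 0.18 (adjusted p = 2.18e-05). Of all genes 5.28% differed between the sets in this way.

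With TNF + IFN, the state in which the chemokines were highest, none was called between the siRNAs, against 17.7% of genes. Cxcl9 was at 0.68 ± 0.48 (1.61-fold, 95% interval 0.81 to 3.19, adjusted p = 0.371). It was higher in 4 of 4 same-numbered pairs, by 1.21 to 1.87 times, and with the replicate block it was called (0.55, adjusted p = 0.0445), where 30.8% of genes were. The sets gave 0.90 ± 0.11 and 0.32 ± 0.10 (adjusted p of the difference = 0.0113, where 9.28% of genes differed). Cxcl10 was at 0.08 ± 0.27 (1.06-fold, 0.72 to 1.56) and Cxcl11 at 0.06 ± 0.46 (1.04-fold, 0.54 to 2.02). Without cytokine the difference between the sets was called for none of the members, against 7.47% of genes.

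The difference between the siRNAs was thus 15.5-fold, 5.65-fold, 4.03-fold and 1.61-fold for Cxcl9 as the level of the gene went up from state to state. The change from the unstimulated state to TNF + IFN was tested as an interaction and was called for none of the members, against 0.531% of genes (Cxcl9 -3.27 ± 1.33, adjusted p = 0.397. Cxcl10 -1.30 ± 0.39, adjusted p = 0.159. Cxcl11 -2.58 ± 1.57, adjusted p = 0.685). With the replicate block it was called for Cxcl9 (-3.38, adjusted p = 0.0144) and Cxcl10 (-1.26, adjusted p = 0.0383), where 4.18% of genes were. The summed level of 7 fibroblast and mural markers moved with the siRNA too, mostly through Acta2, and its part in these differences was not tested. Of the 5 of these genes tested, 1, 2, 1 and 0 were called higher without cytokine, with TNF, with IFN and with both. Of all genes 18.5%, 20.0%, 20.3% and 17.7% were called in those comparisons, in either direction. The list medians, in the same order, were 1.36, -0.11, 1.02 and -0.13. Beside the unstimulated values given above, the summed level with TNF was 39.3 to 66.7 CPM in si-control and 96.9 to 150 CPM in si-dnmt. With IFN it was 22.1 to 71.6 CPM and 86.1 to 233 CPM. With TNF + IFN it was 53.5 to 88.3 CPM and 83.3 to 143 CPM, so the groups overlapped only there.

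**Figure D3:**
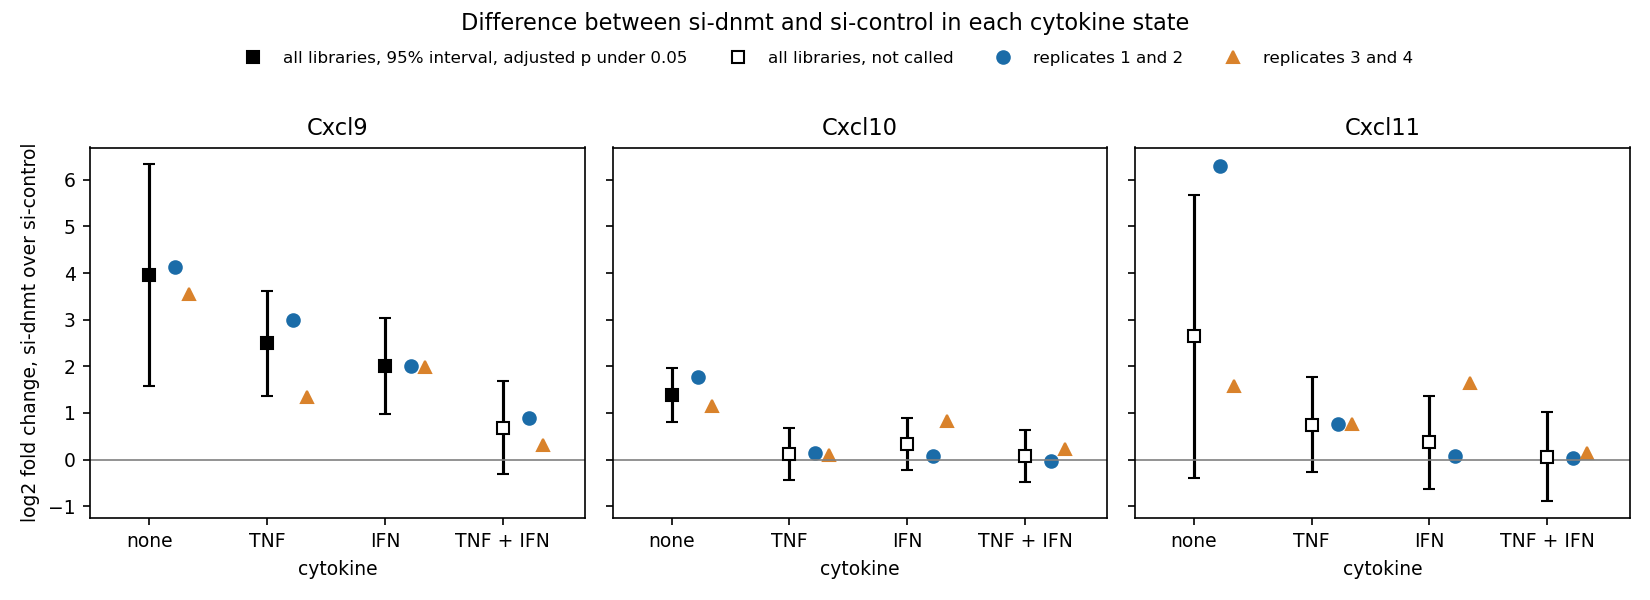
Log2 fold change of si-dnmt over si-control (vertical axis) for each chemokine in the 4 cytokine states, with the 95% interval of the fit to all libraries (squares, filled where the adjusted p is under 0.05) and the values within replicates 1 and 2 (circles) and replicates 3 and 4 (triangles). The Cxcl9 values step down from 3.96 without cytokine to 0.68 with both, and Cxcl10 is filled only without cytokine.

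The make-up of the chemokine RNA changed with the state. For this, CPM was divided by the exonic length of each gene (3.016 kb for Cxcl9, 2.252 kb for Cxcl10 and 3.794 kb for Cxcl11), and each member was expressed as a share of the sum. The shares depend on these lengths, which take in all annotated exons of a gene, and no other length was tried. Cxcl10 made up 99.2% ± 0.67 (SD, n = 4) in si-control and 97.2% ± 0.21 with TNF. With IFN it fell to 77.5% ± 4.57 as Cxcl9 took 20.8% ± 3.76. With TNF + IFN Cxcl9 was the larger part, 59.7% ± 0.77 against 36.7% ± 1.16 for Cxcl10. Cxcl11 never exceeded 4.39% in a library, and the bases it shares with Gm2673 make its share the least certain. The summed length-scaled level of the 3 genes rose from 2.97 to 7.38 CPM per kb in si-control to 1733 to 2494 CPM per kb with TNF + IFN.

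In si-dnmt Cxcl9 took 2.94% ± 2.01 without cytokine, 4.21% ± 2.29 with TNF, 43.5% ± 12.2 with IFN and 67.6% ± 7.25 with TNF + IFN. The spread with IFN was the replicate sets again, with 30.5% as the lowest and 54.4% as the highest library.

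**Figure D4:**
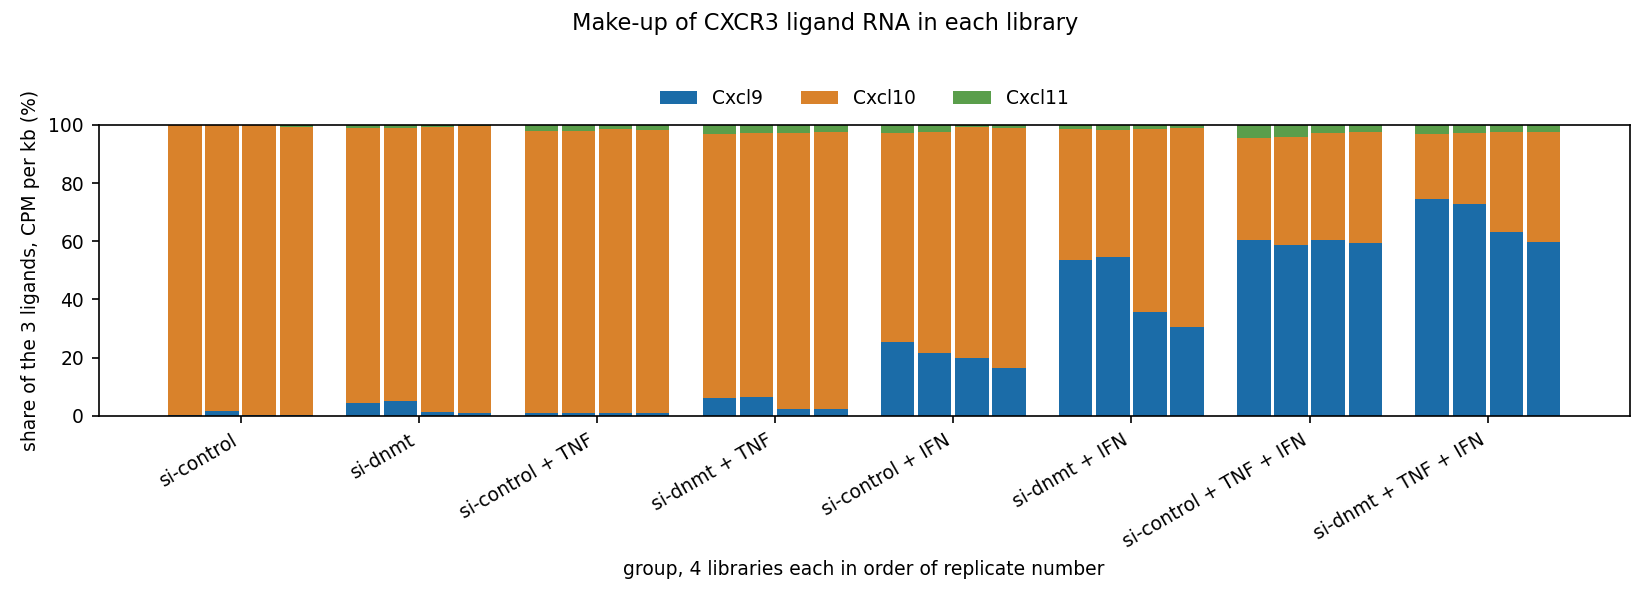
Share of Cxcl9, Cxcl10 and Cxcl11 in the summed CPM per kb of the 3 genes (vertical axis, percent) in each of the 32 libraries, 4 bars a group in order of replicate number. Cxcl10 fills nearly all of each bar without cytokine and with TNF, and Cxcl9 is at least 58.8% in every TNF + IFN library.

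The ratio of members within a library is free of the scaling between libraries and was compared by two-sided exact permutation tests of 4 against 4 libraries, 20 tests adjusted together. The smallest p such a test can give is 0.0286, which became an adjusted p of 0.0440. All 13 calls among the 20 tests sat at that smallest p. The siRNA tests were adjusted together with the cytokine tests and not on their own, so their calls depend on that pooling. The log2 ratio of Cxcl9 to Cxcl10 counts was higher in si-dnmt than in si-control with TNF by 2.05 (-4.22 ± 0.89 against -6.27 ± 0.07, SD, n = 4, exact adjusted p = 0.0440). With IFN it was higher by 1.55 (0.06 ± 0.75 against -1.49 ± 0.35, n = 4, exact adjusted p = 0.0440). Without cytokine it was higher by 2.11 (exact adjusted p = 0.114) and with TNF + IFN by 0.51 (exact adjusted p = 0.143), which were not called. The latter was 0.93 in replicates 1 and 2 and 0.09 in replicates 3 and 4. For the called differences the sets gave, in that order, 2.84 and 1.25 with TNF and 1.93 and 1.17 with IFN. The cytokine itself moved this ratio further. The difference of TNF from IFN was -4.78 in si-control and -4.29 in si-dnmt, with no overlap in either (exact adjusted p = 0.0440 for both). The ratio of Cxcl11 to Cxcl10 did not differ between TNF and IFN in si-control by more than the spread (-0.03, exact adjusted p = 0.943), with -0.70 in replicates 1 and 2 and 0.64 in replicates 3 and 4, and it was higher in si-dnmt than in si-control with TNF by 0.63 (exact adjusted p = 0.0440).

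Over the 32 libraries the log2 CPM of Cxcl10 and Cxcl11 had a Pearson r of 0.990, Cxcl9 and Cxcl11 one of 0.935 and Cxcl9 and Cxcl10 one of 0.924. These are descriptions, since the libraries share treatments. By Pearson r the 5 genes most like Cxcl9 were Irf2 (0.980), Rmdn3, C1ra, Dtx3l and Slamf8. Those most like Cxcl10 were Cxcl11, Ifi205 (0.988), Glipr2, Naa25 and Phf11b, and those most like Cxcl11 were Cxcl10, Naa25 (0.987), Ccrl2, Il15ra and Ifi205. Ranked by Spearman's rho, 1 of these 5 genes stayed among the top 5 for Cxcl9 and 1 for Cxcl10. For Cxcl11, Cxcl10 tied at a rho of 0.981 with the genes ranked 4 and 5, and none of the other genes stayed.

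The signalling genes above the chemokines were read from lists of 9 genes each. Of the IFNγ list, all tested, 5 were called higher and 1 lower with IFN in si-control, where 14.5% of all genes were called, with a median log2 change of 1.11 against -0.00816 over all genes. Irf1, a transcription factor of the pathway, rose by 4.40 ± 0.16 and Socs1, its feedback inhibitor, by 4.91 ± 0.30, while Ifngr1, a receptor chain, fell by 0.43. With TNF 6 of the 9 were called higher, including Irf1 (2.01 ± 0.15), against 30.8% of all genes, and with TNF + IFN 8 of 9 were, against 45.2%. Of the TNF and NF-kB list 7 were called higher and 1 lower with TNF in si-control (median 0.51, again against 30.8% of all genes). Tnfaip3, a brake on NF-kB, rose by 2.64 ± 0.18, Relb by 2.21 ± 0.18 and Nfkbia by 1.43 ± 0.22, and Tnfrsf1a, the main TNF receptor, fell by 0.86. In the TNF-by-IFN interaction in si-control, which was below the product for Cxcl10, 2 of the 9 IFNγ list genes were called, both below it. Of the TNF and NF-kB list 0 were called, and of all genes 1.06%. Irf1 was 1 of the 2 (-1.50 ± 0.20, adjusted p = 4.21e-05). Its part in the departure of Cxcl10 was not tested.

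Between the siRNAs without cytokine, 5 of the 9 IFNγ list genes were called higher in si-dnmt and 0 lower, against 18.5% of all genes (median 0.51 against -0.00493 over all genes). Among them were Socs1 (1.01 ± 0.30), Stat2 (0.72 ± 0.15), Jak2 (0.64 ± 0.11) and Irf1 (0.51 ± 0.14). With TNF the counts were 1 higher and 1 lower, near the 20.0% of all genes, and with IFN and with TNF + IFN they were 0 and 0, against 20.3% and 17.7%. Of the TNF and NF-kB list 3, 1, 5 and 3 genes were called higher in si-dnmt without cytokine, with TNF, with IFN and with both, beside those same shares of all genes. With both, Tnfrsf1b, a TNF receptor, was called lower (-0.41 ± 0.13). Tnfaip3 was among them each time, by 1.22 ± 0.17, 0.88 ± 0.17, 1.20 ± 0.17 and 0.72 ± 0.17.

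Genes for receiving or clearing the chemokines were scarce. Cxcr3, the receptor, had at most 10 counts in any library, and with the decoy receptors Ackr1 and Ackr2 it fell below the filter on low counts. Ackr3, a scavenging receptor for CXCL11, was at 0.752 to 1.38 CPM in si-dnmt + TNF + IFN against 4.31 to 6.77 CPM in si-control + TNF + IFN (log2 -2.50 ± 0.40, adjusted p = 5.08e-05). Dpp4, the peptidase that trims these chemokines, went from 0 counts in all 4 si-control libraries to 1 to 7 counts with TNF + IFN, and to 9 to 20 counts in si-dnmt + TNF + IFN. Of the 3 genes of this list tested, only Ackr3 was called between the siRNAs with TNF + IFN, against 17.7% of all genes. Dpp4 and Pf4, also in the list, were not.

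The neighbouring genes did not share the scale of these changes. With TNF + IFN in si-control 45.2% of all genes were called. There Sdad1 rose by 0.61 ± 0.10 and Nup54 by 0.58 ± 0.09 on the log2 scale, and Scarb2 fell by 0.67. Naaa was at 0.42 ± 0.52 and was not called. Art3, which overlaps the cluster, rose by 2.64 ± 0.67 from 1 to 3 counts up to 7 to 12 counts. Between the siRNAs Sdad1 and Nup54 were called without cytokine (0.37 ± 0.10 and 0.31 ± 0.09) and Sdad1 with IFN (0.31 ± 0.10). None of the 5 neighbours tested was called with TNF or with TNF + IFN. Of all genes 18.5% were called without cytokine, 20.0% with TNF, 20.3% with IFN and 17.7% with both. At such shares an absence of calls among 5 genes says nothing particular about the locus.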

How the data were processed

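Total RNA of 32 cultures was sequenced as bulk RNA-seq. The authors deposited raw gene counts, whole numbers with no normalization, made with featureCounts after trimming with cutadapt 4.9, per the labels. For the aligner, genome build, annotation and strand setting: not given in the sources used here. The deposited merged table equalled the per-library tables for the members, with 0 cells differing. All steps started from the counts.

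Genes were kept by edgeR's filterByExpr (minimum count 10), which left 15254. TMM factors were 0.880 to 1.09. All libraries entered 1 edgeR 4.0.16 model (R 4.3.3) with 8 group means, and contrasts were tested by its quasi-likelihood F test, with p-values adjusted by Benjamini-Hochberg over all genes kept (called under 0.05). SE is the log2 fold change over the square root of F. The fitting script was tested on simulated counts. Ratios used a pseudocount of 0.5 and exact permutation tests (scipy 1.17.1). Intervals are at 95%. Exonic lengths came from GENCODE M21.

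Same-numbered libraries deviated together: the correlations of their deviations from group means were 0.297 to 0.617 over 112 pairs. Of the 32 libraries 24 correlated best with their own number. Whether this came from the number or from the replicate sets was not tested. A fit with the replicate number as a block is given where it changes a call. The permutation tests of ratios take no account of the number. The labels do not tie a number to a day or passage. Alternatives were RLE scaling, DESeq2 1.42.0, no low-count filter, only the groups compared, each replicate set alone and leaving out each library. Replicate set as a term, and the test of differences between sets, were added after seeing the data.

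The members and lists were chosen with earlier results of these data known. Genes are named if they are members, Dnmt1, in the lists, up to 3 neighbours on each side, genes overlapping the cluster, or among the 5 most alike by Pearson r.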

Additional observations from a re-analysis of the deposited data

Results flagged for a closer look

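Cxcl9 in unstimulated si-control cells had a library that stood away from the other 3. Replicate 2 held 3 reads and the others 1 each, and the gap was 0.974 of the group's range in CPM. A group of 4 passes this limit by chance about 1 time in 20, and 24 groups were examined. At counts this low the gap is a matter of 2 reads.

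The change of the siRNA difference from unstimulated cells to TNF + IFN was called in the fit with the replicate block for Cxcl9 (-3.38 on the log2 scale, adjusted p = 0.0144, edgeR) and for Cxcl10 (-1.26, adjusted p = 0.0383). In the fit without the block it was called for neither (adjusted p = 0.397 and 0.159). Fitted alone, replicates 1 and 2 gave -3.25 and -1.81 for these genes, and replicates 3 and 4 gave -3.24 and -0.92. No cause was tested.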

How the results depend on the processing

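Values here are log2 differences, and 60 gene and comparison pairs (the 3 chemokines in 20 comparisons) were refitted. RLE scaling and no low-count filter changed no call or direction. DESeq2 changed 1 call, Cxcl11 between the siRNAs without cytokine (2.81). With only the groups compared that result was also called (2.67, adjusted p = 0.0467, edgeR), and the TNF-by-IFN interaction of Cxcl10 in si-control was not (-1.92). The cause was not tested.

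The replicate block added 4 calls and changed no other: Cxcl11 between the siRNAs with TNF (0.76), Cxcl9 with TNF + IFN (0.55), and the siRNA-by-(TNF + IFN) interaction of Cxcl9 (-3.38) and Cxcl10 (-1.26). Replicate set as a term added the same 4 (0.76, 0.55, -3.38 and -1.26). Of all genes the block called 33.4% between the siRNAs with TNF and 30.8% with TNF + IFN, against 20.0% and 17.7% without it.

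Replicates 1 and 2 alone added calls between the siRNAs for Cxcl11 without cytokine (6.23) and with TNF (0.75) and for Cxcl9 with TNF + IFN (0.89). They turned Cxcl10 with TNF + IFN to -0.035. They added the TNF-by-IFN interaction of Cxcl11 in si-control (-6.70) and of Cxcl10 (-1.49) and Cxcl11 (-1.26) in si-dnmt, and the interactions of siRNA with TNF (Cxcl10 -1.63, Cxcl11 -5.48), with IFN (-1.71, -6.17) and with TNF + IFN (Cxcl9 -3.25, Cxcl10 -1.81, Cxcl11 -6.21), and the three-way interaction of Cxcl10 (1.52).

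Replicates 3 and 4 alone added calls between the siRNAs for Cxcl11 without cytokine (1.59), with TNF (0.75) and with IFN (1.63), for Cxcl10 with IFN (0.83) and with TNF + IFN (0.23) and for Cxcl9 with TNF + IFN (0.32). They added the interaction of siRNA with TNF for Cxcl10 (-1.05) and with TNF + IFN for Cxcl9 (-3.24) and Cxcl10 (-0.92). Directions turned for the TNF-by-IFN interaction of Cxcl9 (0.052) and Cxcl11 (0.013) in si-control and of Cxcl9 in si-dnmt (0.60), for siRNA by IFN of Cxcl11 (0.048) and for the three-way interaction of Cxcl11 (-0.67).

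Leaving out 1 library at a time moved Cxcl9 between the siRNAs without cytokine from 3.42 to 4.54. Uncalled values crossed 0 for Cxcl11 between the siRNAs with TNF + IFN (-0.17 to 0.28), for Cxcl9 in the TNF-by-IFN interaction in si-dnmt (-0.84 to 0.035) and in the three-way interaction (-0.41 to 0.71). The ratio of Cxcl11 to Cxcl10 crossed 0 between the siRNAs with TNF + IFN (-0.22 to 0.14) and between TNF and IFN in si-control (-0.38 to 0.28). A pseudocount of 1 changed none of the 20 ratio tests, and CPM on plain library totals moved none of 24 group means by more than its SD. The reads in unstimulated si-control, 6 for Cxcl9 and 5 for Cxcl11, limit every fold taken against them.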
